A study of Mus musculus with 18 samples.

Results

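The transcriptomes of splenic cDC1 and cDC2, the 2 conventional dendritic cell subsets, were compared over 12 of the 18 RNA-seq samples of the series, 6 of each subset. The members were all columns of the deposited cDC1 and cDC2 count tables, and the subset of a column was taken from the table that holds it. All mice carried loxP-flanked alleles of Hdac1, a class I histone deacetylase gene, and all had received polyI:C 2 weeks before their cells were sorted. Per the labels, each subset comprised 3 samples with genotype HDAC1 floxed and 3 with genotype HDAC1 Mx1-Cre. Mx1-Cre is a recombinase under an interferon-responsive promoter, so it acts in any cell that responds to interferon and is not restricted to dendritic cells, and polyI:C, a double-stranded RNA mimic, induces that interferon. The table columns carry codes, 0 of which match a sample title, so both genotypes were kept together within each subset and genotype adds to the spread within it. The sort gates were CD11c and MHC class II positive, CD64 and lineage negative, then XCR1 positive and CD11b negative for cDC1, and XCR1 negative and CD11b positive for cDC2. No untreated mice were analysed here, and the age and sex of the mice are not given in the labels.

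Conventional dendritic cells take up antigen in tissues and present it to T cells. The cDC1 lineage depends on the transcription factors IRF8 and BATF3, takes up dead-cell material and is known for cross-presentation on MHC class I to CD8 T cells. The cDC2 lineage depends on IRF4 and, in the spleen, on Notch signalling, and is known for MHC class II presentation to CD4 T cells.

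The total count per column was 23530860 to 37105002 for cDC1 and 25672768 to 33820524 for cDC2. Spearman correlations of log2 CPM, counts scaled to a common library total with TMM factors, across genes were 0.976 to 0.987 between cDC1 columns, 0.978 to 0.994 between cDC2 columns and 0.911 to 0.93 between the subsets. The first principal component carried 65.1% of the variance and separated all 6 cDC1 from all 6 cDC2 columns, and the second carried 10.5%. The median SD of log2 CPM within a subset was 0.264 in cDC1 and 0.213 in cDC2, and 66.4% of the genes tested had the larger SD in cDC1. Nothing in the labels says whether samples of different subsets came from the same mice, so p-values measure the spread between these samples.

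Of 15879 genes in both tables, 13209 passed the filter on low counts and were tested with edgeR's quasi-likelihood test. A gene is called here when its Benjamini-Hochberg adjusted p over all 13209 genes is under 0.05. By this rule 6486 genes (49.1%) differed, 3247 (24.6%) higher in cDC1 and 3239 (24.5%) higher in cDC2. The counts of each gene list below are to be read beside these shares of 24.6% and 24.5%. A fitted difference of at least 2-fold was added to the rule for a second count, which gave 1123 genes (8.5%) for cDC1 and 1316 genes (9.96%) for cDC2. The 6 columns of one subset lay entirely above those of the other for 4013 genes (30.4%), with cDC1 above for 1977 (15%) and cDC2 above for 2036 (15.4%). Fold changes are log2 of cDC1 over cDC2 on the fitted scale, so a positive value means a higher level in cDC1, and the value after ± is the standard error of the fit. The median over all genes tested was 0.01, and the median absolute log2 fold change was 0.38. The genes at least 2-fold higher in cDC1 made up 11.6 to 14.7% of the normalised counts in cDC1 columns and 2.58 to 2.86% in cDC2 columns. Those at least 2-fold higher in cDC2 made up 13 to 15.5% in cDC2 columns and 4.12 to 4.74% in cDC1 columns. In these bulk samples, fewer cells that express a gene and less of its RNA per cell cannot be told apart.

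**Figure D1:**
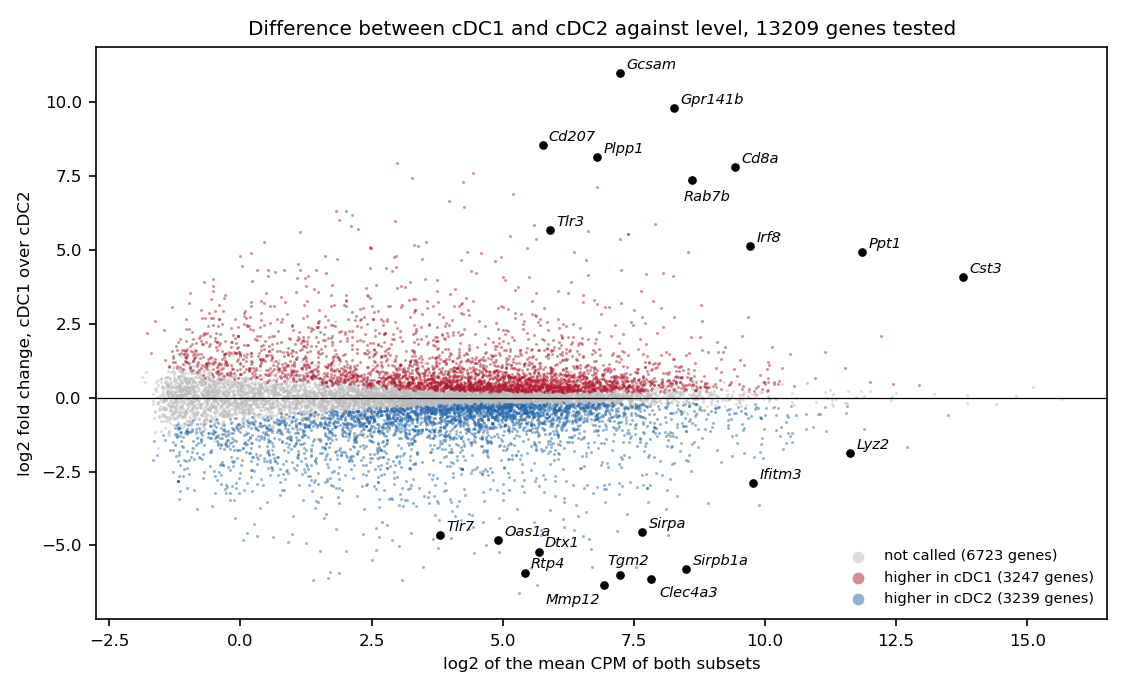
Each point is 1 of the 13209 genes tested, with the log2 of its mean CPM over both subsets on the x axis and its log2 fold change of cDC1 over cDC2 on the y axis. The called genes spread about equally to both sides of 0, and Gcsam stands farthest out on the cDC1 side; the labelled genes were picked for the plot, and Ppt1, Ifitm3 and Lyz2 were picked after their values were seen.

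The 4 lineage markers matched the table names. Xcr1, the chemokine receptor used as the cDC1 gate, was at 835 to 1067 (median 997) CPM in cDC1 and 6.41 to 9.78 (median 7.97) CPM in cDC2. Itgam, which encodes the gate marker CD11b, was at 1.78 to 2.92 (median 2.56) CPM in cDC1 and 32.7 to 48.1 (median 38) CPM in cDC2. Because both genes were sort gates, these values check the tables and are no finding. Clec9a, a receptor for actin exposed on dead cells that was not a gate, was at 260.1 to 363 (median 289) CPM in cDC1 and 5.67 to 9.3 (median 7.03) CPM in cDC2. Its columns did not overlap, and the log2 fold change was 5.36 ± 0.15 (adjusted p = 4.45e-13, edgeR). Sirpa, which encodes an inhibitory receptor that binds CD47, was at 10.7 to 21.7 (median 17.3) CPM in cDC1 and 291 to 505 (median 387) CPM in cDC2. Every cDC2 column was above every cDC1 column for Sirpa, with a log2 fold change of -4.54 ± 0.21 (adjusted p = 3.4e-10, edgeR). In GENCODE M21 on GRCm38, Xcr1 lies on chromosome 9, 123852315 to 123862029, minus strand. Clec9a lies on chromosome 6, 129408862 to 129424763, plus strand. Sirpa lies on chromosome 2, 129592835 to 129632228, plus strand, and Itgam on chromosome 7, 128062640 to 128118491, plus strand. CD11c, a gate that both subsets share, was not at one level in both, because Itgax was at 130.2 to 175 (median 138) CPM in cDC1 and 275 to 307 (median 283) CPM in cDC2. The gate gene H2-Ab1 was not called, at 21007 to 32627 (median 29626) CPM against 24691 to 29213 (median 28749) CPM. Fcgr1, which encodes the negative gate CD64 and was named after its values were seen, was at 0 to 0.958 (median 0.422) CPM in cDC1 and 0.834 to 5.5 (median 3.17) CPM in cDC2.

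**Figure D2:**
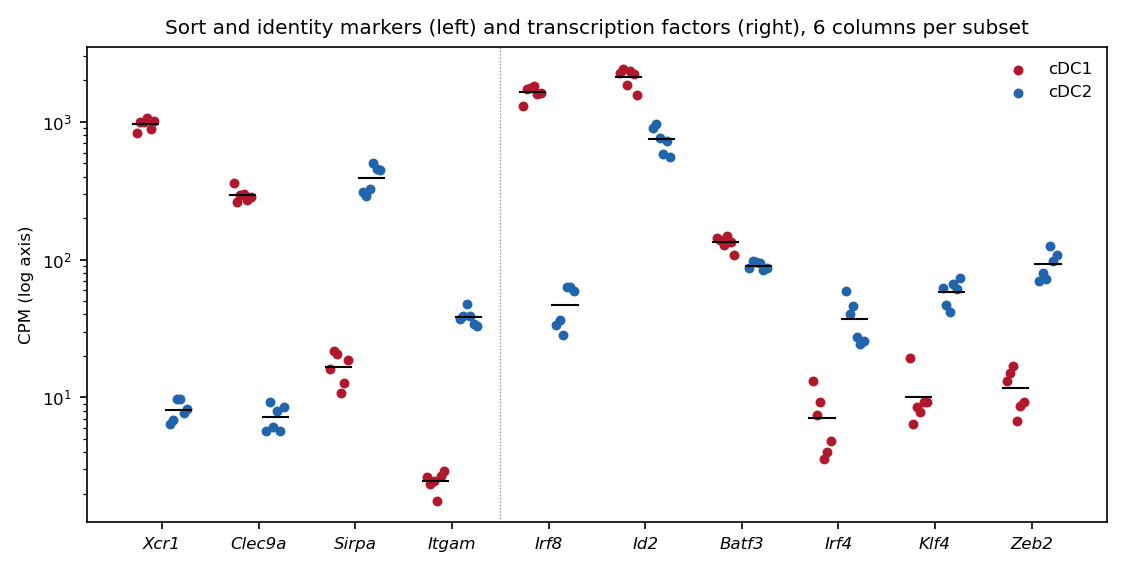
CPM on a log axis for the 4 lineage markers and 6 transcription factors, with 1 point per column and a horizontal line at the mean of each subset. For each of the 10 genes the 6 cDC1 columns and the 6 cDC2 columns do not overlap, with the narrowest gap for Batf3.

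Among the genes with the largest differences in favour of cDC1, Gcsam, Gpr141b and Cd207 were under 1 CPM in every cDC2 column. Gcsam, named for its part in germinal centre B cell signalling and motility, was at 256 to 339 (median 308) CPM in cDC1 and 0.0888 to 0.219 (median 0.135) CPM in cDC2. That is a log2 fold change of 10.99 ± 0.16 (adjusted p = 1.2e-16, edgeR), for a gene on chromosome 16, 45610380 to 45622867, plus strand. Gpr141b, by name an orphan G protein-coupled receptor gene, was at 561 to 702 (median 609) CPM in cDC1 and 0.455 to 0.911 (median 0.653) CPM in cDC2. GENCODE M21 lists Gpr141b as a long intergenic non-coding RNA gene. Cd207, which encodes the lectin langerin, was at 34.2 to 250.1 (median 51.3) CPM in cDC1 and 0.0709 to 0.802 (median 0.172) CPM in cDC2. The spread of Cd207 within cDC1 was wide, with 2 columns far above the other 4, and its log2 fold change of 8.56 ± 0.89 carried the largest standard error of the leading cDC1 genes. Cd8a, which encodes the alpha chain of CD8 and classically marks cDC1 in the spleen, was at 804 to 1990 (median 1327) CPM against 3.3 to 8.32 (median 6.38) CPM. Rab7b, a small GTPase of endosomal traffic, was at 653 to 860.3 (median 792) CPM against 3.56 to 8.2 (median 4.06) CPM. Plpp1, a lipid phosphate phosphatase, was at 176 to 284 (median 215) CPM against 0.379 to 1.56 (median 0.524) CPM. Pdia5, a protein disulfide isomerase of the endoplasmic reticulum, was at 152 to 267 (median 233) CPM against 1.18 to 2.24 (median 1.57) CPM. The remaining genes of the 12 with the largest cDC1 differences at a mean of at least 20 CPM were Gpr33, Mab21l3, P3h2, Clec4b2 and Cpne8, with log2 fold changes of 6.45 to 7.61.

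The cDC1 identity list had 24 genes, of which 23 were tested, all 23 of them higher in cDC1 with no overlap between the columns (median log2 fold change 4.92). Itgb8 was below the filter. Fzd1, a Wnt receptor gene, was at 10.6 to 21.9 (median 16.2) CPM in cDC1 and 0 to 0.154 (median 0.019) CPM in cDC2. Its level in cDC2 was 0 in at least 1 column and under 1 CPM in every column. Ppt1 and Naaa, which encode a palmitoyl thioesterase and an acid amidase of the lysosome, were named after their values were seen. Ppt1 was at 5588 to 8242 (median 7367) CPM in cDC1 and 205 to 277 (median 233) CPM in cDC2. Naaa was at 1734 to 3259 (median 2386) CPM in cDC1 and 36.5 to 77.2 (median 46.9) CPM in cDC2. The smallest fitted difference of the 23 genes was that of Wdfy4, a gene needed for cross-presentation of cell-associated antigen, at 189.7 to 390.0 (median 211) CPM against 50.0 to 139 (median 87.4) CPM. These genes were collected as known markers of the subset, so their direction is not independent evidence of what the columns are.

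Genes with the largest differences in favour of cDC2 were led by receptors of the SIRP and C-type lectin families. Tgm2, which encodes tissue transglutaminase, was at 3.5 to 5.63 (median 4.73) CPM in cDC1 and 238 to 372 (median 288) CPM in cDC2. Its columns were far apart, and the log2 fold change was -6.001 ± 0.15 (adjusted p = 1.17e-13, edgeR). Mmp12, which encodes macrophage elastase and lies on chromosome 9, 7344381 to 7369499, plus strand, was at 0.904 to 4.71 (median 3.01) CPM in cDC1 and 211 to 273 (median 240.1) CPM in cDC2. Rtp4, an interferon-induced gene, was at 0.693 to 2.18 (median 1.27) CPM against 68.5 to 100.9 (median 85.7) CPM. Pltp, which encodes a phospholipid transfer protein, was at 0.994 to 2.34 (median 1.64) CPM against 46.8 to 160.3 (median 79.9) CPM. The signal-regulatory protein genes Sirpb1a, Sirpb1b and Sirpb1c had log2 fold changes of -5.81 ± 0.27, -5.73 ± 0.26 and -6.61 ± 0.29. The lectin genes Clec4a1, Clec4a3 and Clec4a4 had log2 fold changes of -6.34 ± 0.30, -6.13 ± 0.65 and -5.95 ± 0.32. Members of both families resemble each other closely in sequence, so the share that each one takes of the family's counts is uncertain. The other 2 of the 12 leading cDC2 genes were Gm9733 and Tarm1, an activating receptor gene of myeloid cells, both with log2 fold changes of -5.74. Tarm1 was at 0.12 to 1 (median 0.387) CPM against 10.2 to 52 (median 15.9) CPM.

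Of the 24 genes on the cDC2 identity list, 21 were higher in cDC2, 2 were higher in cDC1 and 1 was not called (median log2 fold change -3.56). Like the cDC1 list, this list holds known markers of the subset, so its direction is not independent evidence either. Clec4a4, whose product DCIR2 is a marker of splenic cDC2, was at 1.47 to 7.28 (median 5.04) CPM in cDC1 and 239.8 to 309 (median 306) CPM in cDC2. Esam, an adhesion molecule that marks the Notch-dependent part of splenic cDC2, was at 3.7 to 16.6 (median 8.13) CPM against 50.7 to 77.4 (median 65.2) CPM. Cd4, which encodes a coreceptor that many splenic cDC2 carry and was named after its values were seen, was at 3.96 to 10.8 (median 8.44) CPM against 107 to 171.2 (median 133) CPM. The 2 genes of the list that went the other way were Clec12a and Ccr2. Clec12a, an inhibitory lectin for uric acid crystals, was at 292 to 353 (median 336) CPM in cDC1 and 73.3 to 122 (median 89) CPM in cDC2, without overlap. Ccr2, a chemokine receptor gene, was at 38.1 to 328 (median 190.2) CPM in cDC1 and 27.7 to 57.2 (median 39.6) CPM in cDC2. The Ccr2 columns overlapped and spread widely within cDC1. Adgre5, which encodes CD97, was not called, at 294 to 394 (median 318) CPM against 222 to 359 (median 302) CPM.

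**Figure D3:**
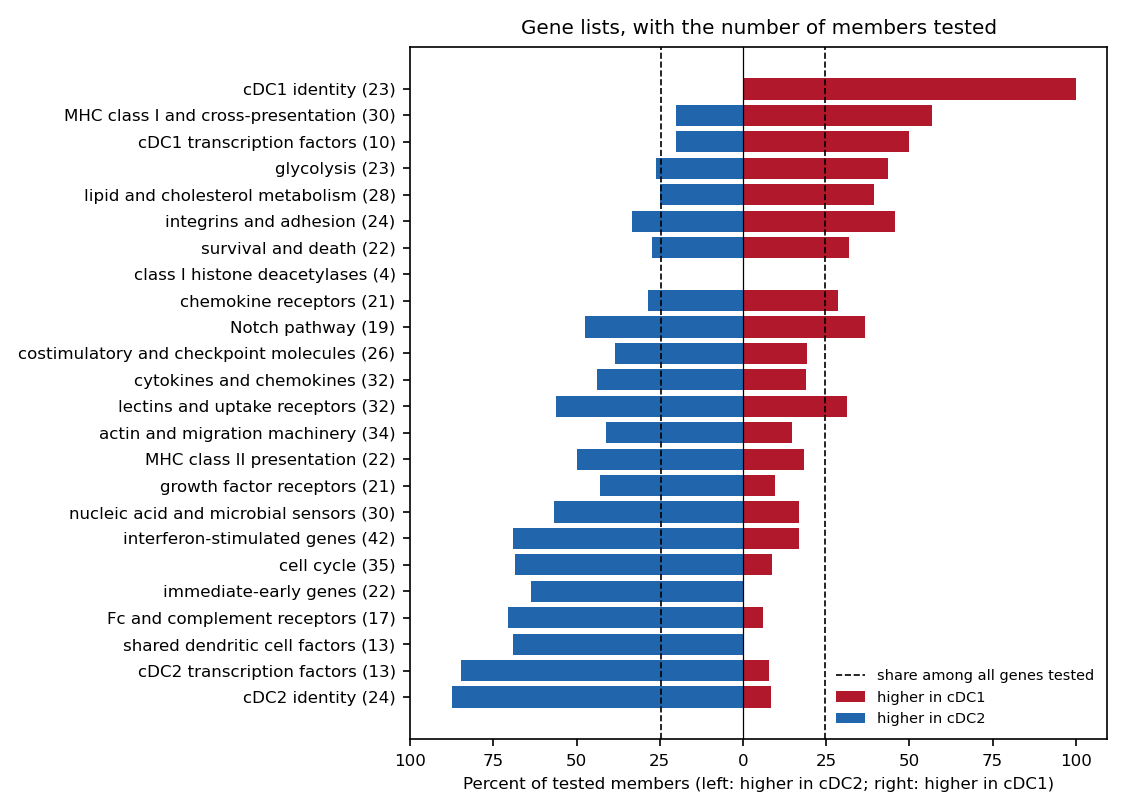
Percent of the tested members of each gene list that were called higher in cDC1 (right) or in cDC2 (left), with the number tested in brackets and dashed lines at the shares over all genes tested. The share higher in cDC1 is 100% for the cDC1 identity list and the share higher in cDC2 is 87.5% for the cDC2 identity list, while the class I histone deacetylases have no called member. Both identity lists hold known markers, so their direction is not independent evidence.

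Among transcription factors of cDC1 development, 5 of 10 were higher in cDC1 and 2 were higher in cDC2. Irf8, the factor that cDC1 need to form and to keep their identity, was at 1314 to 1811 (median 1679) CPM in cDC1 and 28.4 to 62.8 (median 47.7) CPM in cDC2. No column of one subset came near those of the other, and the log2 fold change was 5.12 ± 0.22 (adjusted p = 1.07e-10, edgeR) for this gene on chromosome 8, 120736358 to 120756694, plus strand. Mycl, a Myc family gene active in cDC1, was at 94 to 150.3 (median 107) CPM against 23.7 to 32.5 (median 26.9) CPM. Id2, an inhibitor of E proteins, was at 1566 to 2440 (median 2241) CPM against 555 to 974 (median 746) CPM. Batf3, whose product sustains Irf8 transcription in committed cDC1, differed far less than Irf8. It was at 108 to 149 (median 136) CPM against 83.6 to 97.5 (median 90.5) CPM, without overlap, and its log2 fold change was 0.56 ± 0.08. Zfp366, which encodes DC-SCRIPT, had a log2 fold change of 0.80 ± 0.11. Zbtb18, a repressor gene, was higher in cDC2, at 6.54 to 18.9 (median 6.96) CPM against 20.2 to 31.7 (median 25.9) CPM. Nfil3, a factor upstream in cDC1 specification, was at 27.7 to 88.6 (median 72.2) CPM in cDC1 and 60.4 to 167.1 (median 123) CPM in cDC2. The Nfil3 columns overlapped, its adjusted p was 0.0485 (edgeR), and the call was lost when any of 8 of the 12 columns was left out, with an adjusted p of up to 0.103. Etv6, Bcl6 and L3mbtl3 were not called, with log2 fold changes of 0.09 ± 0.07, -0.15 ± 0.10 and -0.31 ± 0.20.

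Among factors of the cDC2 lineage, 11 of 13 tested were higher in cDC2, 1 was higher in cDC1 and 1 was not called. Irf4, the counterpart of Irf8 in cDC2, was at 3.55 to 13.3 (median 6.15) CPM in cDC1 and 24.5 to 59 (median 33.8) CPM in cDC2, with a log2 fold change of -2.40 ± 0.35 (adjusted p = 7.99e-05, edgeR). Klf4, which a part of the cDC2 needs, was at 6.38 to 19.3 (median 8.88) CPM against 41.4 to 73.7 (median 61.7) CPM. Zeb2, a repressor that opposes the cDC1 fate in progenitors, was at 6.77 to 16.9 (median 11.3) CPM against 69.5 to 125 (median 89.1) CPM. All 6 cDC2 columns were above all 6 cDC1 columns for Irf4, Klf4 and Zeb2. Tbx21, which encodes T-bet, was at 1.64 to 5.1 (median 2.58) CPM against 20.2 to 29.98 (median 27.5) CPM. Prdm1, which encodes Blimp-1, was at 0.462 to 2.18 (median 1.26) CPM against 6.67 to 12.97 (median 9.15) CPM, and Cebpb at 5.85 to 11.8 (median 10.2) CPM against 33.7 to 85.8 (median 61.1) CPM. Rora, Relb and Runx3 had log2 fold changes of -1.85 ± 0.21, -1.29 ± 0.15 and -0.79 ± 0.15. Egr2 and Irf2 were called with overlapping columns and log2 fold changes of -0.80 ± 0.27 and -0.21 ± 0.07. Each of these calls was lost without certain single columns, 3 for Egr2 and 2 for Irf2. Rbpj, the DNA-binding partner of Notch, was the 1 member higher in cDC1, at 67.9 to 84.6 (median 77.1) CPM against 36.1 to 49.7 (median 42.9) CPM. Stat3 was not called, at -0.12 ± 0.08.

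Of the 13 factors that both lineages share, 9 were higher in cDC2, 0 higher in cDC1 and 4 not called. Zbtb46, the factor that separates conventional dendritic cells from other myeloid cells, was at 84 to 119 (median 97.5) CPM in cDC1 and 81.1 to 115 (median 97.4) CPM in cDC2, and its log2 fold change was 0.02 ± 0.11. Spi1, which encodes PU.1, was at 464 to 572 (median 513) CPM against 692 to 812 (median 771) CPM, higher in every cDC2 column than in any cDC1 column. The NF-kappaB subunit genes Nfkb1 and Rel had log2 fold changes of -1.38 ± 0.12 and -1.21 ± 0.17. Ikzf1, which encodes Ikaros, and Bcl11a had -0.92 ± 0.12 and -0.72 ± 0.10. Runx2, Stat5b and Cbfb had log2 fold changes of -1.01 ± 0.15, -0.62 ± 0.09 and -0.23 ± 0.08, and the call of Cbfb was lost with library totals as the only scaling. Gfi1 was called at a level under 1 CPM in every column of both subsets. Tcf4, Stat5a and Runx1 were not called.

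The Notch pathway list had 7 of 19 tested genes higher in cDC1 and 9 higher in cDC2. Dtx1, a target of Notch signalling that encodes an E3 ligase, was at 1.14 to 3.96 (median 2.97) CPM in cDC1 and 44.9 to 164.2 (median 95.8) CPM in cDC2, a log2 fold change of -5.21 ± 0.48 (adjusted p = 2.36e-06, edgeR). Hes1, another target, was at 14.6 to 46.3 (median 21.2) CPM against 55.3 to 108 (median 65.2) CPM. Neither target overlapped between the subsets. Notch2, the receptor on which splenic cDC2 depend, was not called, at 24.4 to 38.7 (median 32.7) CPM in cDC1 and 21.8 to 43.8 (median 32.4) CPM in cDC2. Notch4 was higher in cDC1, at 12.4 to 22.8 (median 18.7) CPM against 1.84 to 2.69 (median 2.34) CPM. The ligand gene Jag2 was at 4.67 to 9.78 (median 6.44) CPM in cDC1 and 0.834 to 2.13 (median 1.31) CPM in cDC2. Numb, an inhibitor of Notch signalling, had a log2 fold change of 0.91 ± 0.11. The coactivator gene Maml3 had -1.95 ± 0.17 and Lfng, whose product modifies Notch receptors with sugar, had -0.77 ± 0.14. Dll1 was below the filter, and Hey1 was listed for cDC2 alone.

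Growth factor and cytokine receptors differed for 2 genes in favour of cDC1 and 9 in favour of cDC2, of 21 tested. Flt3, the receptor for the cytokine on which all dendritic cells depend, was at 451 to 493.3 (median 465) CPM in cDC1 and 309 to 458 (median 368) CPM in cDC2, with overlapping columns and a log2 fold change of 0.33 ± 0.09. Il15ra, which presents IL-15 to neighbouring cells, was at 25.9 to 68.9 (median 47.2) CPM against 13.2 to 18.3 (median 15.9) CPM. Csf1r, the receptor of macrophage colony-stimulating factor, was at 16.3 to 22.3 (median 19.5) CPM in cDC1 and 104 to 348 (median 230.2) CPM in cDC2. The cDC2 columns of Csf1r spread widely, and all lay above cDC1. Csf3r and Kit had log2 fold changes of -2.86 ± 0.31 and -1.12 ± 0.14, and Il6ra had -1.26 ± 0.10. Csf2ra and Ifngr1 were not called, at 0.24 ± 0.11 and 0.20 ± 0.11.

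Fc and complement receptor genes were mostly higher in cDC2, with 12 of 17 tested against 1 higher in cDC1 (median log2 fold change -2.56). Fcer1g, the shared signalling chain of Fc receptors, was at 154 to 276 (median 201) CPM in cDC1 and 1200 to 1635 (median 1552) CPM in cDC2. C1qa and C1qb, which encode chains of the complement starter C1q, were at 33.2 to 85.3 (median 59.3) and 61.5 to 179 (median 116) CPM in cDC2 and at 3.93 to 7.95 (median 6.54) and 7.63 to 14.8 (median 11.8) CPM in cDC1. Fcgrt, the neonatal Fc receptor gene, was the 1 member higher in cDC1, at 123 to 179 (median 144) CPM against 53.1 to 94.7 (median 77) CPM. Csf1r, C1qa, C1qb and Adgre1 are also on the list of monocyte and macrophage markers. Of the 21 markers tested on that list, 12 were higher in cDC2 and 4 in cDC1, and 0 of the 21 in both tables were at 0 in every column of a subset. Their summed level was 1508 to 3351 CPM in cDC1 and 3638 to 11590 CPM in cDC2. Within each subset 3 columns stood apart, at 2628 to 3351 CPM against 1508 to 1656 CPM in cDC1 (columns a166, a169 and a172 higher) and at 6795 to 11590 CPM against 3638 to 4128 CPM in cDC2 (columns a167, a170 and a173 higher). Lyz2, a lysozyme gene named after its values were seen, was at 812.5 to 2259 (median 1242) CPM in cDC1. In cDC2 it was at 2417 to 9570 (median 3905) CPM, with the same 3 columns of each subset highest. At that level 1 gene can carry much of such a sum. The 3 higher columns of each subset were also its 3 lowest for Hdac1, given by column below. Whether the summed level of the list and that of Hdac1 are linked was not tested. Of that list, Adgre1, which encodes F4/80, was at 2.39 to 8.04 (median 6.44) CPM in cDC1 and 163.5 to 244 (median 200.1) CPM in cDC2. Ly6c2, Chil3 and Ccr2, genes that monocytes also express, went the other way and were higher in cDC1. Under the alternatives described below, their log2 fold changes were 2.06 to 2.33, 2.99 to 3.45 and 1.78 to 2.42. Vcam1 and Hmox1, genes of splenic red pulp macrophages, were not called, at -0.16 ± 0.36 and 0.88 ± 0.66. The part of monocytes or macrophages in the Fc receptor, complement and Csf1r differences was not tested.

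Sensors of nucleic acids and microbes were called in both directions, with 5 of 30 tested higher in cDC1 and 17 higher in cDC2. Tlr3, the endosomal receptor for double-stranded RNA, was at 105 to 132 (median 115) CPM in cDC1 and 1.52 to 3.68 (median 2.18) CPM in cDC2, a log2 fold change of 5.66 ± 0.17 (adjusted p = 1.38e-12, edgeR). Tlr11 and Tlr12, receptors for profilin of protozoan parasites, were at 141 to 214 (median 191) and 11.2 to 27.6 (median 22.95) CPM in cDC1. In cDC2 they were at 7.51 to 15.9 (median 10.1) and 0.62 to 2.73 (median 1.22) CPM. Ticam1, the adaptor that TLR3 uses, had a log2 fold change of 0.75 ± 0.14. On the other side, Tlr7, the endosomal receptor for single-stranded RNA, was at 0.0718 to 2.2 (median 1.09) CPM in cDC1 and 17.8 to 36.7 (median 26.7) CPM in cDC2. Tlr1, a partner of TLR2 for lipopeptides, was at 8.78 to 16.9 (median 12.4) CPM against 78.7 to 93.4 (median 85.7) CPM. Tlr5, the flagellin receptor, was at 0.167 to 1.6 (median 0.893) CPM against 4.16 to 8.4 (median 6.36) CPM. Ddx58, which encodes the cytosolic RNA sensor RIG-I, was at 1.27 to 2.97 (median 2.25) CPM in cDC1 and 21.2 to 27.8 (median 26) CPM in cDC2. None of the sensors named so far had overlapping columns. Unc93b1, the chaperone that endosomal Toll-like receptors share, was not called, at 0.13 ± 0.10, and neither was Cd14, at -0.92 ± 0.40.

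C-type lectins and other uptake receptors divided as 10 higher in cDC1 and 18 higher in cDC2, of 32 tested (median log2 fold change -1.86). Cd36, a scavenger receptor for lipids and dead cells, was at 322 to 618 (median 465) CPM in cDC1 and 6.56 to 11.2 (median 7.54) CPM in cDC2. Ly75, which encodes the uptake receptor DEC-205, was at 67.1 to 120.2 (median 91.9) CPM against 10.2 to 17.8 (median 14.7) CPM. Both joined Clec9a and Cd207 on the cDC1 side. Clec4a1 was at 0.621 to 2.02 (median 0.942) CPM in cDC1 and 66.1 to 133 (median 94.9) CPM in cDC2, and Clec4a3 was at 1.33 to 11.6 (median 5.54) CPM against 196 to 739 (median 422) CPM. Cd209b, a lectin for bacterial polysaccharides, was at 0.0239 to 0.704 (median 0.286) CPM against 4.85 to 20.6 (median 10.9) CPM. Mrc1 and Clec4e were low in both subsets and were not called.

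In the list of MHC class I and cross-presentation genes, 17 of 30 were higher in cDC1 and 6 higher in cDC2 (median log2 fold change 0.68). Pdia3, a disulfide isomerase of the peptide-loading complex, was at 1209 to 2035 (median 1814) CPM in cDC1 and 474 to 612 (median 516) CPM in cDC2, without overlap, and its log2 fold change was 1.73 ± 0.12 (adjusted p = 1.07e-08, edgeR). Tap1, a subunit of the transporter that brings peptides into the endoplasmic reticulum, was at 267 to 363 (median 315) CPM against 104 to 124 (median 117) CPM. Nlrc5, the transactivator of MHC class I genes, was at 30.5 to 92 (median 43.7) CPM against 14.03 to 23.3 (median 19) CPM. The class I heavy chain genes H2-K1 and H2-D1 were not called, with log2 fold changes of -0.18 ± 0.13 and 0.15 ± 0.11. Of the cDC2-higher members, Cybb encodes a part of the phagosomal NADPH oxidase and was at 30.9 to 85.7 (median 49.7) CPM in cDC1 and 318 to 392 (median 328) CPM in cDC2. Rac2, a GTPase of the same oxidase, had a log2 fold change of -0.89 ± 0.13. Classical class I genes resemble each other, so the split of their counts is uncertain.

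For MHC class II presentation, 4 of 22 genes (18.2%) were higher in cDC1 and 11 (50%) in cDC2, against 24.6% and 24.5% over all genes tested. The genes of the classical class II chains H2-Aa, H2-Ab1 and H2-Eb1 were not called. Cd74, the invariant chain, was at 37731 to 57582 (median 52049) CPM in cDC1 and 44101 to 56435 (median 52892) CPM in cDC2, with a log2 fold change of -0.05 ± 0.12. H2-Ab1 had 0.04 ± 0.12, and H2-Aa had -0.22 ± 0.13. Tmem176a and Tmem176b, ion channel genes linked to the class II compartment, were at 186 to 368 (median 256) and 315 to 506 (median 386) CPM in cDC1. In cDC2 they were at 729 to 1393 (median 1071) and 1156 to 2050 (median 1631) CPM, above every cDC1 column. The peptide-exchange factor genes H2-DMb1 and H2-DMb2 went opposite ways. H2-DMb1 was at 1226 to 1584 (median 1398) CPM in cDC1 and 567 to 842 (median 715) CPM in cDC2, and H2-DMb2 was at 343 to 498 (median 432) CPM in cDC1 and 1327 to 1663 (median 1501) CPM in cDC2. H2-DMb1 and H2-DMb2 are near-identical neighbours, so how their counts were divided is uncertain. H2-DMa, called higher in cDC1 with a log2 fold change of 0.23 ± 0.09, lost its call when any of 9 of the 12 columns was left out. H2-Eb2 had a log2 fold change of -2.21 ± 0.15. Cst3, which encodes the cathepsin inhibitor cystatin C, was the exception in size. It was at 17917 to 33993 (median 25654) CPM in cDC1 and 1401 to 1946 (median 1517) CPM in cDC2, a log2 fold change of 4.08 ± 0.16 (adjusted p = 1.4e-11, edgeR).

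Of 26 costimulatory and checkpoint molecules, 5 (19.2%) were higher in cDC1 and 10 (38.5%) in cDC2, against 24.6% and 24.5% over all genes tested. Btla, an inhibitory receptor gene, was at 308 to 377 (median 355) CPM in cDC1 and 42.9 to 61.8 (median 53.8) CPM in cDC2. Cd86, a ligand for CD28 and CTLA-4, was at 391 to 511 (median 457) CPM against 201 to 237 (median 213) CPM. Slamf8 and Cd200 had log2 fold changes of 1.22 ± 0.10 and 0.70 ± 0.13. The ligands of PD-1 were on the other side. Cd274, which encodes PD-L1, was at 29.2 to 54.2 (median 35.5) CPM in cDC1 and 96.6 to 144 (median 105) CPM in cDC2. Pdcd1lg2, which encodes PD-L2, was at 2.54 to 10.6 (median 4.28) CPM against 18.7 to 32.1 (median 24.1) CPM. Cd244a had a log2 fold change of -1.95 ± 0.16. The maturation marker gene Cd83 was not called, at 1512 to 3848 (median 2898) CPM against 2424 to 4543 (median 3058) CPM.

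Of 21 chemokine and migration receptors, 6 were higher in cDC1 and 6 higher in cDC2, 28.6% each way and near the 24.6% and 24.5% over all genes tested. Cxcr3, the receptor for CXCL9 and CXCL10, was at 45.4 to 69.1 (median 50.5) CPM in cDC1 and 0.5 to 3.85 (median 2.03) CPM in cDC2. Ccr9, a receptor of gut homing, was at 17.05 to 34 (median 26) CPM against 5.27 to 6.92 (median 5.77) CPM. Ccr6, the receptor for CCL20, was at 0.862 to 6.31 (median 2.36) CPM in cDC1 and 43.7 to 96.1 (median 69.2) CPM in cDC2. Gpr183, the oxysterol receptor that positions splenic cDC2 in the bridging channels, was at 106 to 213 (median 142) CPM against 368 to 517 (median 466.3) CPM. None of these 4 receptors had overlapping columns. Cx3cr1 and Ltb4r1 had log2 fold changes of -1.97 ± 0.34 and -2.86 ± 0.27. Ccr7, which guides dendritic cells to T cell zones, was not called, at 456 to 1464 (median 869) CPM against 1054 to 1636 (median 1161) CPM.

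Cytokine and chemokine genes comprised 6 higher in cDC1 and 14 higher in cDC2 of 32 tested. Cxcl9, a ligand of CXCR3, was at 376 to 549 (median 455) CPM in cDC1 and 36.9 to 81.7 (median 52.8) CPM in cDC2, a log2 fold change of 3.05 ± 0.18. Il12b, a subunit gene of the cytokine IL-12, was at 237 to 537 (median 305) CPM against 43.9 to 86.3 (median 62.8) CPM. Il15 was at 37.4 to 63.7 (median 51.5) CPM against 11.4 to 15.9 (median 13.6) CPM, and Ccl22, a ligand of CCR4, at 80.8 to 239.6 (median 128) CPM against 14.96 to 45.7 (median 30.7) CPM. For all 4 genes every cDC1 column was above every cDC2 column. Vegfa, the angiogenic growth factor gene, was at 0.682 to 2.11 (median 1.83) CPM in cDC1 and 19.9 to 104 (median 57.9) CPM in cDC2. Il1rn, which encodes the IL-1 receptor antagonist, was at 3.31 to 6.77 (median 3.73) CPM against 66 to 256 (median 106) CPM. Ccl9 was at 3.9 to 9.94 (median 8.58) CPM against 81.5 to 156 (median 106) CPM, and Osm at 1.19 to 4.5 (median 3.37) CPM against 9.07 to 50.4 (median 26.9) CPM. These 4 genes did not overlap either, and the cDC2 columns of Vegfa spread widely. Cxcl10 and Ccl5 were not called, at -0.34 ± 0.29 and -0.53 ± 0.46.

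Immediate-early genes, which respond within minutes to stimulation or to handling of the cells, were called only in favour of cDC2, 14 of 22 (median log2 fold change -1.01). Dusp1, a phosphatase of stress kinases, was at 448 to 712 (median 641) CPM in cDC1 and 1393 to 2515 (median 2151) CPM in cDC2. Atf3 was at 82.8 to 252 (median 217) CPM against 448 to 850.1 (median 646) CPM, and Nr4a1 at 294 to 938 (median 779.8) CPM against 1025 to 2250 (median 1815) CPM. Fosl2, an AP-1 subunit gene, was at 6.79 to 36.4 (median 18.7) CPM against 50.5 to 86.5 (median 72.6) CPM. All 4 genes were without overlap. Nr4a2 and the heat-shock gene Hspa1b were not called. The summed level of the list was 7170 to 9461 CPM in cDC1 and 12930 to 19490 CPM in cDC2, so every cDC2 column was above every cDC1 column. Nfkb1, Rel, Relb, Cebpb, Klf4 and the cytokine genes Il1rn, Osm and Vegfa lay on the same side as this list. Il12b, Ccl22, Cxcl9 and Cd86 lay on the cDC1 side, and Cd83 and Ccr7 were not called. The part of an immediate-early response in any of these differences was not tested.

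Interferon-stimulated genes were examined as a group because all mice had received polyI:C. Of 42 genes, 29 were higher in cDC2 and 7 in cDC1 (median log2 fold change -1.31). Oas1a, a synthetase of the RNase L pathway, was at 1.37 to 2.32 (median 2.13) CPM in cDC1 and 44.6 to 64.5 (median 62.4) CPM in cDC2, a log2 fold change of -4.82 ± 0.14 (adjusted p = 7.02e-13, edgeR). Ifit3, an antiviral RNA-binding protein gene, was at 0.359 to 1.37 (median 0.959) CPM against 19.3 to 33.1 (median 23.6) CPM. Oas2 was at 0 to 0.198 (median 0.127) CPM against 2.96 to 9.59 (median 6.99) CPM. With Rtp4, these genes had no overlap between the subsets. Isg15, a ubiquitin-like modifier gene, and Ifitm3, a restriction factor gene, were named after their values were seen. Isg15 was at 10.5 to 18.8 (median 14.6) CPM in cDC1 and 90.3 to 116 (median 94) CPM in cDC2, and Ifitm3 at 119.5 to 328 (median 177) CPM against 1086 to 1964 (median 1576) CPM. The Oas1 and Ifitm genes are families of close copies, which makes the count of each member uncertain.

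The list did not move as 1 block. Iigp1, an immunity-related GTPase gene, was higher in cDC1, at 12.95 to 35.9 (median 28.1) CPM against 2.84 to 7.14 (median 3.76) CPM. Ly6e was at 2503 to 3880 (median 3472) CPM in cDC1 and 910.2 to 1494 (median 1141) CPM in cDC2. Mx1, whose promoter drives the Cre transgene, was at 28.1 to 47.1 (median 37.3) CPM against 13.3 to 22.2 (median 15.8) CPM, without overlap and with a log2 fold change of 1.13 ± 0.16. Ly6a had a log2 fold change of 1.94 ± 0.43 with overlapping columns. Irf7, a master regulator of type I interferon, was not called, at 64 to 107 (median 76.1) CPM against 70.3 to 84.1 (median 74.1) CPM. Irf9, which encodes a subunit of the interferon-activated factor ISGF3, was not called, at -0.16 ± 0.07. No comparison with mice that did not get polyI:C was made, so the values say nothing of an induction.

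**Figure D4:**
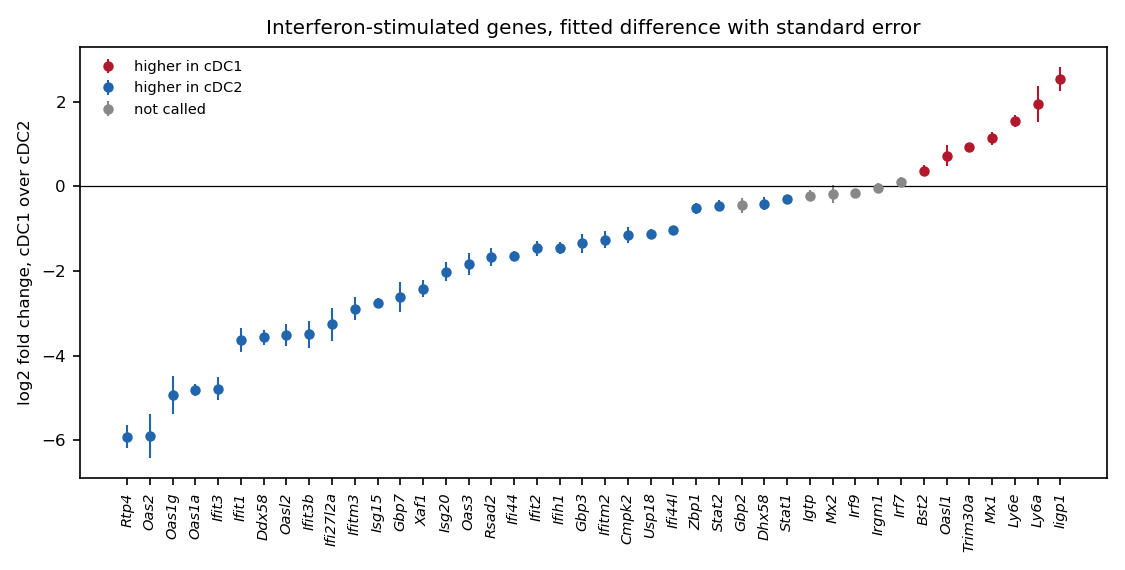
Fitted log2 fold change of cDC1 over cDC2 for the 42 interferon-stimulated genes, ordered by value, with bars of 1 standard error. The 29 genes called higher in cDC2 are led by Rtp4, 6 genes are not called, and the 7 called higher in cDC1 are led by Iigp1.

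The stretches before the start of 3 genes higher in cDC2 and 3 higher in cDC1 are given as examples of 1 short motif. They are the 250 bases upstream of the start in RefSeq, 5′ to 3′ along the gene's strand, on GRCm38.p6. Capitals mark matches, on either strand, to the interferon-stimulated response element, read as GAAA, any 2 bases and GAAA, or to the PU.1 site GAGGAAGT. The genes were chosen after the matches were seen and from both directions, so a match in each stretch is no result. The first 3 are higher in cDC2 (Ifit3 at chr19:34583279-34583528, plus strand; Oas1a at chr5:120907526-120907775, minus strand; Cybb at chrX:9469325-9469574, minus strand).
Ifit3: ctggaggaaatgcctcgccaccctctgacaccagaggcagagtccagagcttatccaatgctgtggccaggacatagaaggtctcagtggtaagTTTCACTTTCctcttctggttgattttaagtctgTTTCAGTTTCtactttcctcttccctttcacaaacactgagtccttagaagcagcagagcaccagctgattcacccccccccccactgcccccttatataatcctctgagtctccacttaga
Oas1a: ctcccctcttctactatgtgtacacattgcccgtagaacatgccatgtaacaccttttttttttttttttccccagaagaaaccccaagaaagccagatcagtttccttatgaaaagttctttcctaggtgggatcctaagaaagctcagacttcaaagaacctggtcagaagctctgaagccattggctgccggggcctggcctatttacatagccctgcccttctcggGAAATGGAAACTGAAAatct
Cybb: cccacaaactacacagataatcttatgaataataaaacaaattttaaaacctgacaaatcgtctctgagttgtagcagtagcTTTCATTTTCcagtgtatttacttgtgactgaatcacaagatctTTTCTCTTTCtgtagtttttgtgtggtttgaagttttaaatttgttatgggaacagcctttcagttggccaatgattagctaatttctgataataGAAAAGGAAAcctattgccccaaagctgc
The next 3 are higher in cDC1 (Gpr141b at chr13:19732952-19733201, minus strand; Tlr11 at chr14:50357664-50357913, plus strand; Slamf8 at chr1:172590569-172590818, minus strand).
Gpr141b: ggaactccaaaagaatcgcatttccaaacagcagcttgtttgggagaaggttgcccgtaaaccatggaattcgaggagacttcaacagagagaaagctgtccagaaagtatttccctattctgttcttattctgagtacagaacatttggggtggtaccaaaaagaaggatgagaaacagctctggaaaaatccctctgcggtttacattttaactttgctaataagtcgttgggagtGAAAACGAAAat
Tlr11: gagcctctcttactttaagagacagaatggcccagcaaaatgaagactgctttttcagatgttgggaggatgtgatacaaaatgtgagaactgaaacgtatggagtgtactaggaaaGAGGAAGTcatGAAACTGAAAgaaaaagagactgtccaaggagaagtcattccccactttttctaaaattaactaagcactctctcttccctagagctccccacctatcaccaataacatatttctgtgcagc
Slamf8: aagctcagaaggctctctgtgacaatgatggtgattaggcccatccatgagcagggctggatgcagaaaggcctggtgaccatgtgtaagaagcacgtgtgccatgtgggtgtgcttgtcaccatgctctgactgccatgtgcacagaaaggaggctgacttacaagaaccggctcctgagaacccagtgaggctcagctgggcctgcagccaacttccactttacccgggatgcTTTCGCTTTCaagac
In all 6 stretches at least 1 match is to the response element, and in Tlr11 the first capitals are the PU.1 site. Over 32851 promoter windows of 300 bases, from 250 before to 50 after the start, 3.44% held the response element. The composite site for ETS and IRF factors, read as GGAA, any 2 bases and GAAA, was in 2.72% and the PU.1 site in 3.2%, and matches of these motifs can overlap. Composite sites for AP-1 and IRF factors were in 0.244%. These were read as TTTC, any 4 bases, TGA, any base and TCA, or as GAAATGA, any base and TCA. Only 79.2% of the genes tested had a window, 76% of those at least 2-fold higher in cDC1 and 76.7% of those at least 2-fold higher in cDC2. That is too few for a comparison of motif shares between the gene sets, and none was made. A match is a stretch of letters and does not show that a factor binds there.

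Integrins and adhesion molecules were called for 11 genes higher in cDC1 and 8 higher in cDC2 of 24 tested. Cadm1, an adhesion molecule that marks cDC1 across species, was at 606 to 831 (median 703) CPM in cDC1 and 16.8 to 34.2 (median 23.3) CPM in cDC2. Itgae, which encodes CD103, was at 8.13 to 49.7 (median 15.7) CPM against 0.154 to 1.1 (median 0.558) CPM. Itga8 was at 25.9 to 57.5 (median 41) CPM against 0.986 to 4.32 (median 1.46) CPM, and Itga1 at 10.8 to 18.1 (median 14.02) CPM against 0.385 to 1.06 (median 0.727) CPM. All 4 were without overlap. Itgb3 and Epcam were higher in cDC2, with log2 fold changes of -1.81 ± 0.24 and -1.38 ± 0.31, and the columns of Epcam overlapped. Itga4 and Icam1 were not called.

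Cell cycle genes were higher in cDC2 for 24 of 35 and higher in cDC1 for 3 (median log2 fold change -0.53). Ccnd1 and Ccnd2, cyclins of the entry into the cycle, were at 44.5 to 92.3 (median 67.9) and 17.8 to 36.2 (median 21.7) CPM in cDC1. In cDC2 they were at 161.5 to 384 (median 276) and 44.7 to 129 (median 83.2) CPM. Rrm2, a subunit of ribonucleotide reductase active in S phase, was at 22.3 to 31.2 (median 26.9) CPM against 67.3 to 89.2 (median 74.4) CPM. Top2a, a topoisomerase of dividing cells, was at 13.3 to 20.3 (median 16.4) CPM against 34.8 to 57.8 (median 46.7) CPM. The 3 genes higher in cDC1 were Ccnb1, Ccnb2 and Cdc20, which act in mitosis. Cdc20 was at 22.2 to 35 (median 23.98) CPM in cDC1 and 7.77 to 12.4 (median 10.1) CPM in cDC2, Ccnb2 at 49.5 to 68.6 (median 64.9) CPM against 23.1 to 33.1 (median 29.1) CPM and Ccnb1 at 21.1 to 33.8 (median 28.5) CPM against 13.9 to 18.3 (median 16.5) CPM. Cdk4 and Ccnd3 were not called.

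Of 22 survival and death genes, 7 (31.8%) were higher in cDC1 and 6 (27.3%) in cDC2, near the 24.6% and 24.5% over all genes tested. Bid, which links death receptors to mitochondria, was at 63.3 to 75.5 (median 72.1) CPM in cDC1 and 23.05 to 37.2 (median 27.7) CPM in cDC2. Ripk3, a kinase of necroptosis, was at 41.8 to 76.8 (median 62.9) CPM against 18.99 to 39.8 (median 28.4) CPM. Casp1, the inflammasome protease gene, was higher in cDC2, at 33.1 to 58.3 (median 43.9) CPM against 92.3 to 131 (median 112) CPM. Pmaip1, which encodes the BH3-only protein NOXA, had a log2 fold change of -0.89 ± 0.14. The Bcl2a1 copies, which cannot be counted apart with certainty, had log2 fold changes of -1.37 ± 0.18 for Bcl2a1b and -0.67 ± 0.15 for Bcl2a1d, and Bcl2a1a was not called. Mcl1 was not called, at -0.09 ± 0.08.

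In lipid metabolism 11 of 28 genes (39.3%) were higher in cDC1 and 7 (25%) in cDC2, against 24.6% and 24.5% over all genes tested. Plin2, which coats lipid droplets, was at 182 to 246 (median 218) CPM in cDC1 and 29.7 to 74.8 (median 49.8) CPM in cDC2. Apol7c, an apolipoprotein L gene linked to phagosome rupture in cDC1, was at 897 to 1852 (median 992) CPM against 118 to 537 (median 277) CPM. Fdps, an enzyme of cholesterol synthesis, had a log2 fold change of 1.22 ± 0.19. Nr1h3, which encodes the oxysterol receptor LXR alpha, was at 1.23 to 2.81 (median 1.91) CPM in cDC1 and 9.36 to 25.4 (median 16) CPM in cDC2. Fabp5, a fatty acid carrier gene, was at 31.9 to 119 (median 70.4) CPM against 345 to 722 (median 422) CPM. Apoe and Srebf2 were not called.

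Glycolysis genes were higher in cDC1 for 10 of 23 (43.5%) and in cDC2 for 6 (26.1%), against 24.6% and 24.5% over all genes tested. Enzymes of the same step lay on different sides. Hk3, a hexokinase gene, was at 48.7 to 70.6 (median 61.2) CPM in cDC1 and 3.23 to 4.19 (median 3.41) CPM in cDC2, while Hk1 was at 11.6 to 23.4 (median 15.3) CPM against 23.9 to 30.7 (median 27.7) CPM. Pfkp, a phosphofructokinase gene, was at 136 to 213 (median 162.7) CPM against 33.4 to 66.8 (median 46.1) CPM, and Pgk1 at 191 to 254 (median 214) CPM against 73.1 to 89.3 (median 80.4) CPM. Eno1 was higher in cDC2, with a log2 fold change of -0.94 ± 0.10. The glucose transporter gene Slc2a3 was at 4.22 to 13.9 (median 9.17) CPM in cDC1 and 35.5 to 61.4 (median 41.4) CPM in cDC2. Of the lactate transporter genes, Slc16a1 had 1.10 ± 0.23 and Slc16a3 had -2.13 ± 0.47 on the log2 fold scale. Pkm and Hif1a were not called.

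Actin and migration genes were called for 5 in favour of cDC1 and 14 in favour of cDC2 of 34. S100a6, a calcium-binding protein gene, was at 86.9 to 142 (median 123) CPM in cDC1 and 446 to 894 (median 657) CPM in cDC2. Elmo1, which activates Rac together with DOCK proteins, was at 84.4 to 115 (median 101.4) CPM against 206 to 247 (median 234) CPM. Anxa1 was higher in cDC1, at 141 to 271 (median 189) CPM against 52.4 to 85.4 (median 72.4) CPM, and so was Tmsb10, at 1241 to 1894 (median 1393) CPM against 463 to 768 (median 651) CPM. Actb and Tmsb4x were not called.

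The class I histone deacetylase genes were not called between the subsets. Hdac1, the targeted gene, was at 5.32 to 74.2 (median 32) CPM in cDC1 and 5.74 to 78.8 (median 37.1) CPM in cDC2, a log2 fold change of -0.10 ± 0.96 (adjusted p = 0.945, edgeR). The level of Hdac1 differed widely among the columns within each subset. Hdac2 was at 67.3 to 125 (median 97.8) CPM against 75.6 to 101.2 (median 95.5) CPM, and Hdac3 and Hdac8 had log2 fold changes of 0.06 ± 0.09 and -0.18 ± 0.16.

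Markers of cells that the gates should leave out differed between the subsets as well. Neutrophil markers were mostly higher in cDC1, 10 of 12 tested, and the summed level of the list was 324.1 to 1330 CPM in cDC1 and 52.45 to 184.2 CPM in cDC2. Ngp, a granule protein gene, was at 54.5 to 232 (median 112) CPM in cDC1 and 0.731 to 24.9 (median 11.8) CPM in cDC2, and Camp, Lcn2 and Ltf had log2 fold changes of 3.09 ± 0.55, 3.10 ± 0.56 and 3.17 ± 0.53. The other 2 members were higher in cDC2 without overlap, Csf3r, named above, and Mmp9, a gelatinase gene, at 1.64 to 3.98 (median 2.44) CPM in cDC1 and 6.16 to 12.2 (median 9.98) CPM in cDC2. Plasma cell markers summed to 349.7 to 1976 CPM in cDC1 and 172.2 to 280.5 CPM in cDC2, with 5 of 8 tested higher in cDC1 and 2 higher in cDC2 without overlap. The latter were Prdm1, named above, and the immunoglobulin heavy chain gene Ighg2b, at 0.503 to 3.31 (median 1.61) CPM in cDC1 and 7.28 to 11.2 (median 8.97) CPM in cDC2. Igha, the immunoglobulin A heavy chain gene, was at 41.9 to 599 (median 273) CPM against 0.796 to 35.9 (median 7.7) CPM, and Jchain at 17.8 to 313 (median 126) CPM against 1.33 to 20.01 (median 7.94) CPM. The levels of Ngp and Igha spread widely over the columns of both subsets.

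Of the B cell markers, 9 of 14 were higher in cDC1 and 2 in cDC2, and the list summed to 521.4 to 681.3 CPM in cDC1 and 345.7 to 502.1 CPM in cDC2. Ms4a1, which encodes CD20, was at 43.5 to 123 (median 89.4) CPM against 14.6 to 39.9 (median 28) CPM, while Blk was at 0.536 to 4.09 (median 1.71) CPM against 10.98 to 34.9 (median 21.3) CPM. Of the T and NK cell markers 12 of 16 were higher in cDC1, yet their sum was lower there, at 136.8 to 178.5 CPM against 195.4 to 341.3 CPM. Klrd1, a lectin-like receptor gene, was at 26.3 to 95.3 (median 63.4) CPM in cDC1 and 165.8 to 296 (median 249.7) CPM in cDC2. Cd8b1, the partner chain of Cd8a in T cells, was at 13.4 to 60.1 (median 34.4) CPM in cDC1 and 0.847 to 2.16 (median 1.34) CPM in cDC2. Erythroid and platelet genes summed to 2893 to 8959 CPM in cDC1 and 3220 to 5685 CPM in cDC2, with 6 of 13 called higher in cDC1. That count moved both ways, to 3 without cDC2 column a165, 4 with limma-voom, and 9 with DESeq2 or without cDC1 column a163. The plasmacytoid markers summed to 271.5 to 383.4 CPM against 300.9 to 368.4 CPM. Of 19 tested, 7 (36.8%) were higher in cDC1 and 5 (26.3%) in cDC2, against 24.6% and 24.5% over all genes tested. Basophil and mast cell markers had 3 genes tested and summed to 15.21 to 31.28 CPM in cDC1 and 37.39 to 55.18 CPM in cDC2, with 4 further symbols listed for cDC1 alone. In none of these 7 lists or that of monocytes and macrophages was a member of both tables at 0 in every column of a subset. The part of such cells in the differences between cDC1 and cDC2 was not tested.

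**Figure D5:**
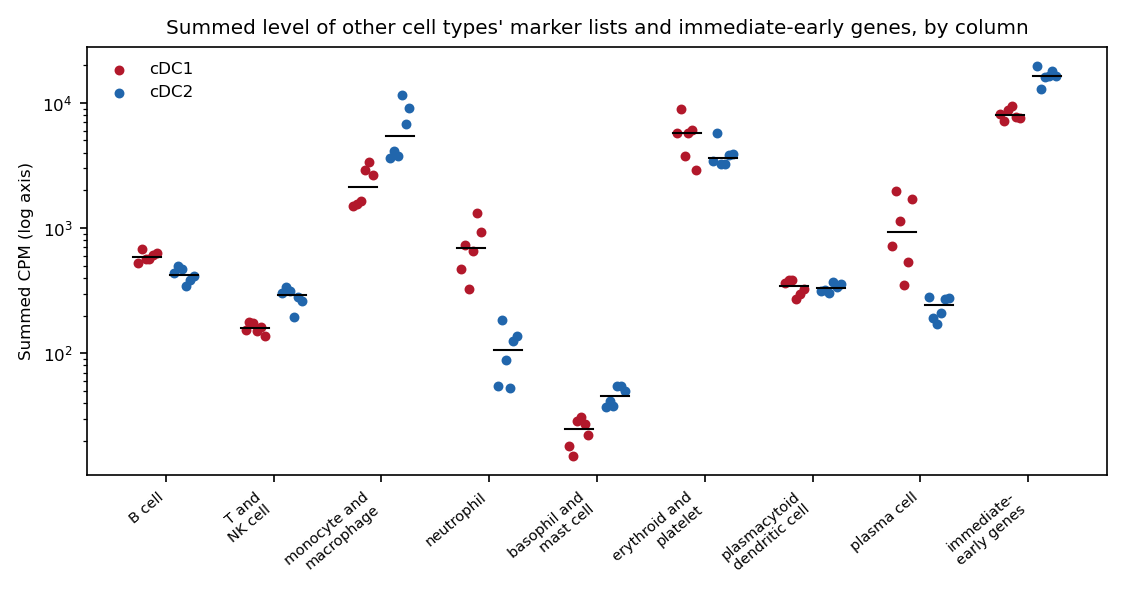
Summed CPM on a log axis of 8 marker lists of other cell types and of the immediate-early genes, with 1 point per column and a line at the median of each subset. Neutrophil, plasma cell and B cell sums are higher in every cDC1 column than in any cDC2 column, and monocyte and macrophage, T and NK cell, basophil and immediate-early sums are higher in every cDC2 column than in any cDC1 column.

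Some genes were listed for 1 subset alone and could not be tested, 1138 for cDC1 and 427 for cDC2, most of them at low counts. Their median count, summed over 6 columns, was 16 for cDC1 and 15 for cDC2, and the lowest row sum in either table was 10. A gene missing from a table may thus have been at or near 0 there, so no fold change is given. A mean of at least 1 CPM with counts in all 6 columns was reached by 21 genes listed for cDC1 alone and 2 for cDC2 alone. Chosen after their values were seen, Dkk3, a secreted glycoprotein gene on chromosome 7, 112116017 to 112159057, minus strand, was at 29.7 to 103.9 CPM in cDC1 (median 56.1). Clnk, an adaptor gene of immune receptor signalling, was at 19.3 to 32.5 CPM (median 25.6). Slc27a2, a fatty acid transport gene, was the first of the 2 listed for cDC2 alone, at 1.94 to 3.64 CPM (median 2.59).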

How the data were processed

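RNA-seq was deposited for 18 samples of 3 dendritic cell subsets, and 12 columns, 6 of cDC1 and 6 of cDC2, were compared. The deposited gene counts are whole numbers that the authors made with kallisto against GRCm38, per the submitters' processing notes, which also name DESeq2 and give no versions. Another 18 columns, normalised by the authors within each subset, were not used, because they cannot be compared between subsets. The cDC1 and cDC2 tables were joined on gene symbol, without any sample's genotype.

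The counts were fitted in R 4.3.3 with edgeR 4.0.16: filterByExpr for the 2 groups, TMM normalisation over all 12 columns, and the robust quasi-likelihood test of cDC1 against cDC2. CPM values use the TMM library sizes. No replicate number links the columns, and no covariate was fitted. P-values were adjusted by Benjamini-Hochberg over all 13209 genes tested. Alternatives used DESeq2 1.42.0, limma 3.58.1, other scalings and filters, all 18 count columns in 1 fit, and each of the 12 columns left out in turn. Collapsing rows with identical counts was added after seeing the data. The fitting code was tested on simulated data.

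The genes named are the 12 with the largest difference in each direction among called genes without overlap and with a mean of at least 20 CPM in the higher subset, sort gates left out, and, per list, up to 4 called members in each direction with a mean of at least 5 CPM and 2 members not called, with the 4 markers, the class I histone deacetylases and the full lists of transcription factors. Cd4, Fcgr1, Ifitm3, Isg15, Lyz2, Naaa, Ppt1, Dkk3, Clnk and Slc27a2 were named after their values were seen. The comparison, its markers and its 33 gene lists were chosen with earlier results of these data known. Promoter sequences are RefSeq's on GRCm38.p6, and positions are from GENCODE M21. Figures were drawn with matplotlib 3.10.9.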

Additional observations from a re-analysis of the deposited data

Results flagged for a closer look

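In each subset the 6 columns were checked for 1 column far from the other 5, on 237 genes named in the text. The measure was the ratio of its gap to the whole range, taken on log2 of CPM plus 0.5. Chance flags about 1 in 20 groups of columns, and 22 of 474 groups (4.64%) passed the limit of 0.625.

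In cDC1, the column with code a172 was the lowest for Actb at 6875.8 CPM, for Ccl9 at 3.9034 CPM, for Clec12a at 292.37 CPM and for Mrc1 at 0.69447 CPM. The next Actb value was 15982 CPM. Column a160 was the lowest for the stimulation-responsive genes Atf3 at 82.822 CPM, Nr4a1 at 293.58 CPM, Cd83 at 1511.5 CPM and Cd14 at 33.893 CPM. Column a157 was the highest for the transcription factors Zbtb18 at 18.888 CPM and Klf4 at 19.343 CPM. It was the lowest for Unc93b1 at 469.83 CPM and for Eno1 at 196 CPM. Oas1a was lowest in column a166, at 1.3733 CPM.

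In cDC2, column a167 was the highest for Fabp5 at 722.09 CPM and for Rab7b at 8.1959 CPM. It was the lowest for Clec4a4 at 239.76 CPM and for Ngp at 0.73109 CPM. Column a158 was the lowest for Cd74 at 44101 CPM and for Fcer1g at 1200.5 CPM, and the highest for Rel at 416.58 CPM. Cst3 was highest in column a161, at 1945.5 CPM. Zfp366 was lowest in column a165, at 42.568 CPM.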

How the results depend on the processing

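No paired analysis was possible because a column code names neither a mouse nor a replicate, and nothing in the labels ties a cDC1 sample to a cDC2 sample. With each of the 12 columns left out in turn, 2971 to 3294 genes were higher in cDC1 and 3083 to 3303 in cDC2. The counts at least 2-fold higher were then 1090 to 1155 and 1317 to 1399. Under the 9 other alternatives, 2895 to 3404 genes were higher in cDC1 and 3001 to 3466 in cDC2. The counts at least 2-fold higher were 791 to 1208 and 1005 to 1427. No main call changed sign under any of the 21 alternatives, but many were lost. Without cDC1 column a166, 5969 of the 6483 main calls tested were kept. With library totals alone 5990 of 6486 were kept, and with DESeq2 6476 of 6485. The losses listed next are only those among the genes picked by the naming rule. Calls were lost for H2-DMa (without any of 9 columns, adjusted p up to 0.111), Nfil3 (8 columns, up to 0.103), Cd3d (6 columns, up to 0.0801), Slc4a1 (6 columns, up to 0.0806), Egr2 (without cDC1 column a157 or cDC2 columns a158 or a165, up to 0.0546) and Irf2 (without cDC1 column a163 or cDC2 column a173, up to 0.064). Cbfb (0.0744) and Irf2 (0.0543) were lost with library totals alone, Nfil3 (0.0563) and H2-DMa (0.0683) with no filter, H2-DMa with upper quartile scaling (0.0611), Cd3d with limma-voom (0.0631) and Ighg2b with all 18 columns in 1 fit (0.0556). With at least 10 counts required in every column, fewer genes were tested, and the T and NK cell markers higher in cDC1 went from 12 to 3 and the plasmacytoid markers higher in cDC2 from 5 to 3. Of the genes named as not called, Tcf4 passed the threshold under 6 alternatives, Tmsb4x under 4, Icam1 and Irf9 under 3 each, Cd14 under 2, and Bcl2a1a, Csf2ra, H2-Aa, Ifngr1, L3mbtl3 and Unc93b1 under 1 each. The log2 fold change of Cd207 moved from 8.56 to 9.20 without cDC2 column a158, and that of Fzd1 from 7.95 to 8.55 without cDC2 column a173. With limma-voom that of Tlr7 moved from -4.66 to -5.34 and that of Gpr33 from 7.61 to 8.29. The cause of these changes was not tested.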

Other observations

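The labels could not be joined to the columns, so the level of the targeted gene Hdac1 is given by column. In cDC1 it was 55.5 CPM in column a157, 72.8 in a160, 74.2 in a163, 5.76 in a166, 5.32 in a169 and 8.43 in a172. In cDC2 it was 71.7 CPM in column a158, 66.6 in a161, 78.8 in a165, 6.27 in a167, 5.74 in a170 and 7.61 in a173. The 6 values of each subset fell into 3 high and 3 low ones that lay apart. No genotype was assigned from these values.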
